A study of Mus musculus with 12 samples.

Results

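Obox genes (oocyte-specific homeobox) form a tandemly duplicated family on mouse chromosome 7. Their proteins carry a homeodomain, a DNA-binding fold shared with the paired-like factors Crx and Otx. Several family members are loaded into the egg as maternal mRNA and are known to take part in switching on the embryonic genome after fertilization, whereas Obox3 and Obox6 are better known from the embryo. Between the germinal vesicle (GV) stage and metaphase II (MII) the oocyte does not transcribe, so that the level of a maternal mRNA in this window follows its storage and decay. Per the study's methods, polyadenylated mRNA was reverse transcribed, so that counts may also follow the length of the poly(A) tail. For the transcripts it assayed, the study reports tails that shortened during maturation in WT and less so without *Alkbh5*. The part of tail length in the counts was not tested. ALKBH5 removes N6-methyladenosine, a methyl mark, from RNA. The question here is how the maternal Obox transcripts behaved during meiotic maturation and whether loss of *Alkbh5* altered them.

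Followed by symbol were Obox1, Obox2, Obox3, Obox5, Obox6 and Obox7, 6 of the 56691 genes in the count table. The libraries came from C57BL/6 oocytes that were wild type (WT) or carried a total knockout of *Alkbh5* (KO), made by deleting the exon with the start codon in every cell of the animal, so that follicle cells lacked the gene too. The juvenile females were primed with the gonadotropin PMSG, and denuded oocytes were taken at GV, germinal vesicle breakdown (GVBD) or MII. There were 12 libraries, 2 for each of the 6 combinations of genotype and stage, each from a small pool of oocytes. Per the study's methods the stage labels stand for times in culture. Genotype thus cannot be told apart from meiotic progress at GVBD and MII. At GV the study reports smaller KO oocytes, with a higher ratio of non-surrounded to surrounded nucleoli. Genotype thus cannot be told apart from growth state there. The labels do not say whether the 2 libraries of a group came from separate animals, so p-values measure the spread between these libraries.

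Levels are ERCC-scaled counts, that is, reads counted on a gene divided by the library's summed count on the ERCC spike-in RNAs relative to the mean over the 12 libraries. Total counts ranged from 28557742 to 40247810 per library. Endogenous counts per ERCC count ranged from 98.9 to 127.7 at the GV stage and from 47.0 to 87.9 at MII over both genotypes. *Alkbh5* was counted at 5355 to 10181 reads in the 6 WT libraries and at 54 to 143 in the 6 KO libraries, which do not overlap. Its log2 fold change was -5.41 at GV (edgeR adjusted p = 0.046), -6.43 at GVBD (1.26e-05) and -5.89 at MII (3.6e-06), and the first of these lay close to the threshold. All 10 oocyte markers, among them the growth factor Gdf9 and the zona genes, were counted in the series, at a sum of 11470 to 24946 CPM (counts scaled to the same endogenous total) over the libraries. The 14 cumulus and granulosa markers summed to 26.0 to 75.4 CPM. Other markers moved between libraries: the summed level of 7 blood genes ranged from 1.23 to 5545 CPM, 8 liver genes from 0.101 to 774, 5 heart muscle genes from 78.7 to 966 and 3 keratinocyte genes from 0 to 59.0. Blood genes were low in both KO GVBD libraries (4.31 and 7.59) and high in both WT GVBD libraries (2950 and 3229), all 7 being called lower in KO. At GVBD 1 of 8 cumulus and granulosa markers tested was called higher in KO and 2 of 3 keratinocyte genes lower, against 2.54% of all tested genes. From GV to GVBD in WT, 2 of 3 keratinocyte genes were called higher, against 0.0511% of all tested genes called. Of the 5 blood genes tested at MII all were called higher in KO by edgeR and 0 by DESeq2, and the KO libraries there stood at 1.23 and 919 CPM, on both sides of the WT pair (7.19 and 36.2). Of 5 heart muscle genes 4 were called lower in KO at MII, and 3 of 8 liver genes were called higher in KO at GV. From GV to MII in WT, 4 oocyte markers were called lower and 1 higher, all 5 blood genes tested and 3 of 9 cumulus and granulosa markers were called lower, and all 4 liver genes tested were called higher by edgeR (0 by DESeq2). In KO, 4 of 5 heart muscle genes were called lower from GV to MII and all 7 blood genes from GV to GVBD. The part of these differences in the Obox comparisons was not tested. A lower level of the markers of other cells in these bulk samples cannot be divided into fewer cells and less RNA per cell. For oocytes, the study's methods give a set number per library and an equal amount of ERCC RNA. Its methods and a figure legend give different numbers, and the number in each pool could not be checked here.

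The sequences were read first, because the counts rest on reads that map to 1 place only. The first coding exon, from the start codon, holds 217 coding bases in Obox1, Obox2, Obox3, Obox5 and Obox7. They are shown because they tell how many bases separate the copies. Capitals mark bases that differ from Obox1, and each run is written 5′ to 3′ on the strand of the gene (GRCm38, GENCODE M21).
Obox1 (chr7:15555162-15555378, plus strand): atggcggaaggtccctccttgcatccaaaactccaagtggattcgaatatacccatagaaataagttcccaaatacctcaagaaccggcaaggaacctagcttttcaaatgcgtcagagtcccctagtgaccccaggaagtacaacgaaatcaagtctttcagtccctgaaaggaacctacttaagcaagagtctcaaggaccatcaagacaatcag
Obox2 (chr7:15396845-15397061, plus strand): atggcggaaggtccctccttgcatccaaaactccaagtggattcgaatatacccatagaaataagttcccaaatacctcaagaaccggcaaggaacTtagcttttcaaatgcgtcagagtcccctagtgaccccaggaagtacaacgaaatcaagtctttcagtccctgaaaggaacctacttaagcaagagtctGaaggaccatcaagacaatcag
Obox5 (chr7:15757537-15757753, plus strand): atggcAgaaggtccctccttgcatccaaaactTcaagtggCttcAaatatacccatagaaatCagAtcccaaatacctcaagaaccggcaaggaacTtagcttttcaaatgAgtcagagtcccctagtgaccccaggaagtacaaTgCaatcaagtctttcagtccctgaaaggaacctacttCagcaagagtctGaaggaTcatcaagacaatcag
Obox7 (chr7:14664037-14664253, plus strand): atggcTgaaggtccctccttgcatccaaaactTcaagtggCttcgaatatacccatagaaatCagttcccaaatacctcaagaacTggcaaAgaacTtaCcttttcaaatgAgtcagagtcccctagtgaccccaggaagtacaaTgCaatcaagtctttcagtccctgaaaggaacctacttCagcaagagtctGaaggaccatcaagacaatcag
Obox3 (chr7:15627122-15627338, minus strand): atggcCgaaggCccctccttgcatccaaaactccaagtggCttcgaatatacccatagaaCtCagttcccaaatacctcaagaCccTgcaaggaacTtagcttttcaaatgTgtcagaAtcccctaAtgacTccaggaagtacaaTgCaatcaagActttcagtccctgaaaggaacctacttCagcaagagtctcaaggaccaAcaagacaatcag

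Obox2 differed from Obox1 at 2 of the 217 bases, Obox5 and Obox7 at 13 each and Obox3 at 17. Obox5 and Obox7 differed from each other at 7. Over the aligned bases of the longest coding sequences, with gaps of 42 to 588 bases left out, identity was 98.5% between Obox1 and Obox2, 92.9% to 96.0% between every other pair of these 5 genes, and 77.04% to 81.1% between Obox6 and each of them. Windows of 150 bases, the length of 1 sequenced read, were compared with the annotated transcripts of all genes on both strands; the genome itself was not searched. All windows of Obox5, Obox6 and Obox7 were found in no other gene, and so were 95.5% of those of Obox3. For Obox1 and Obox2 only 65.9% and 61.8% of windows were their own, and the rest occurred in the other member of this pair. In windows of 50 bases the own shares were lower. They were 42.6% for Obox1, 34.9% for Obox2, 78.9% for Obox7, 79.8% for Obox3, 81.9% for Obox5 and 95.0% for Obox6. Obox5 and Obox7 shared 280 such windows. An annotated transcript of Obox1 also begins in an exon of Obox2. The division of reads between Obox1 and Obox2 is therefore uncertain, and their sum is safer than either value.

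The 6 genes lie between bases 14659496 and 15839678 of chromosome 7, and 53 genes with an Obox name lie within 1508 kb there. In order along the chromosome they are Obox7 (14659496-14665996), Obox2 (15388721-15398545), Obox1 (15388948-15556866), Obox3 (15479825-15639902), Obox5 (15750131-15759800) and Obox6 (15833241-15839678), where Obox3 and Obox6 are on the minus strand. The longest coding sequences run from 453 bases in Obox2 to 1041 in Obox6. Of the 49 other Obox rows, 19 had any count, and together they held 0.0614% of all Obox counts. The one with the most reads was the pseudogene Obox3-ps6, at 33 to 440 counts per library, and Obox8 was counted in 2 libraries only. Rows of the Obox4 group, all named as pseudogene copies, summed to 477 counts over 12 libraries. At 150 bases the pseudogene Obox3-ps3 was the only one of these rows to share windows with a member, Obox3, and at 50 bases further Obox3 pseudogenes shared windows with the members, so that counts of the Obox3 copies are uncertain.

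Promoter sequence was available from RefSeq (GRCm38.p6) for 5 of the 6 genes, as 250 bases before to 50 bases after the annotated start. The motif TATATAA, chosen after the sequences were read and searched on both strands, occurred in 4 of the 5, and in 3.24% of all 32851 promoters of that length. These promoters are near copies: the longest shared run was 134 bases in Obox5 and Obox7 and 82 in Obox1 and Obox5. The occurrences are thus not independent, and the shares are no test. The 100 bases before the start are shown for the 3 genes in which the whole motif falls there, with the motif in capitals.
Obox1 (chr7:15547157-15547256, plus strand): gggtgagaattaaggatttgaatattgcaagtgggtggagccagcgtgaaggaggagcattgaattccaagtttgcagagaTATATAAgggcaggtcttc
Obox3 (chr7:15639778-15639877, minus strand): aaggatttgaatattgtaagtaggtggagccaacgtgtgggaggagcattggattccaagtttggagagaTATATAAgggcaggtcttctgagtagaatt
Obox5 (chr7:15750270-15750369, plus strand): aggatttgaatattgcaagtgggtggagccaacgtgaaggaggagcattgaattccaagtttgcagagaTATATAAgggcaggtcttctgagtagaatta

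The motif began 30 bases before the start of Obox3, 31 before that of Obox5 and 19 before that of Obox1. In Obox7 it straddles the annotated start, and the Obox2 window, whose annotated start lies further upstream, does not contain these letters. The homeodomain motifs TAATTG and TAATCC occurred in 0 and 1 of the 5 promoters (8.0% and 7.06% of all), the E-box CANNTG in 4 (72.3%), its palindrome CACGTG in 0 (7.15%), CCAAT in 3 (37.4%) and TATAAA in 1 (13.6%). Obox3, at a low level in these oocytes, and Obox5, at a high one, shared a run of 35 bases in the windows shown.

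Obox1, Obox2, Obox5 and Obox7 were among the most abundant transcripts of the oocyte. By mean count over the 12 libraries Obox2 ranked 5th of 56691 genes, Obox1 25th, Obox5 57th and Obox7 221st. Obox3 ranked 4557th and Obox6 18736th. Per kb of exon the order stayed the same. In WT GV oocytes the ERCC-scaled count per kb was 166468 ± 95.3 for Obox2 (SD, n = 2, as for all values here), 74435 ± 746 for Obox1, 32631 ± 1961 for Obox5, 14573 ± 486 for Obox7, 173 ± 86.5 for Obox3 and 12.4 ± 6.25 for Obox6. The order held in every one of the 6 groups with no overlap between the libraries of neighbours. Obox2 exceeded Obox1 by 1.85 to 2.55 times, Obox1 exceeded Obox5 by 1.57 to 2.46 times and Obox5 exceeded Obox7 by 2.06 to 2.82 times. Of the 150-base windows, 34.1% of those of Obox1 and 38.2% of those of Obox2 occur in both genes. How reads from them were assigned is not known, while levels per kb divide by the whole exon length. The order and gaps that involve Obox1 or Obox2 are thus uncertain. The gap from Obox7 to Obox3 was at least 28.8 times in the means of each group.

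**Figure D1:**
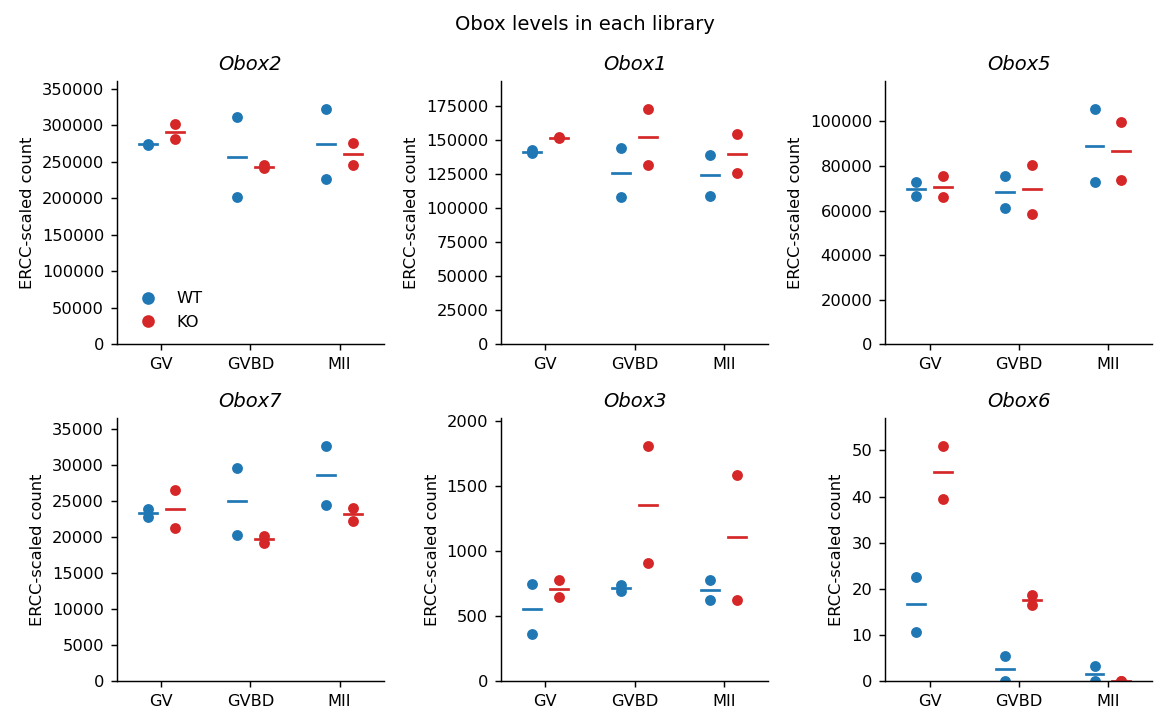
ERCC-scaled counts (y axis, linear, from 0, with a scale of its own for each gene) of the 6 Obox genes by stage (x axis) in WT (blue) and KO (red). Each point is 1 library and each bar the mean of 2, and the 4 abundant genes stayed at a similar height at all stages while Obox6 lay between 0 and 3.19 at MII.

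The first comparison asked how these mRNAs fared from GV to MII, when the pool of maternal RNA shrinks. In WT, all endogenous counts together reached 0.590 of their ERCC-scaled GV level at MII, whereas the 6 Obox genes together reached 1.02 of theirs. In KO the values were 0.597 and 0.951. Obox2, the most abundant, was counted in WT at 273895 and 274117 (ERCC-scaled) in the GV libraries and at 322311 and 226523 at MII. The KO libraries held 301983 and 281298 at GV, against 245839 and 276635 at MII. The MII libraries lay on both sides of GV in WT and just below GV in KO.

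Obox1 was at 142429 and 140425 in GV oocytes of WT, against 139075 and 109246 in MII oocytes. The corresponding KO values were 151254 and 152158, then 125548 and 154616. Its WT MII libraries were both lower than GV, the first by a margin smaller than the gap between the MII libraries, and the KO groups overlapped. Obox5 was at 72662 and 66739 in WT oocytes at GV, and reached 105484 and 72736 at MII. KO oocytes had 75719 and 65875, then 73759 and 99949. Obox5 was thus higher in both WT MII libraries and overlapped in KO. Obox7, the least abundant of the 4, was at 23896 and 22794 in WT oocytes at GV, and reached 32613 and 24453 at MII. The KO libraries gave 26503 and 21245, then 22153 and 24053, with overlap. Groups did not overlap for 3 of 5 Obox genes tested in WT (61.6% of all tested genes) and for 2 of 6 in KO (64.9%).

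The edgeR quasi-likelihood test was fitted to all genes, and a gene was called at an adjusted p (Benjamini-Hochberg over all genes tested) under 0.05 with an absolute log2 fold change of at least 1. In WT, 0 of the 5 Obox genes tested were called, against 30.9% of the 18816 genes tested, of which 5747 were lower and 74 higher at MII. None of the 5 had an unadjusted p under 0.05, and DESeq2 called 0 of them. In KO, 0 of 6 were called against a background of 3.28% (18777 tested), 1 of them, Obox6, with an unadjusted p under 0.05. That background of 616 genes was unstable, at 3068 with DESeq2 and at 39 (without KO GV replicate 1), 54 (without KO GV replicate 2), 3518 (without KO MII replicate 2) and 11075 (without KO MII replicate 1), so the backgrounds of WT and KO are not to be set against each other. The log2 fold changes of the 4 abundant genes ran from -0.19 to 0.35 in WT and from -0.16 to 0.29 in KO, with adjusted p-values of 0.585 to 0.998 and 0.711 to 0.965 in edgeR. The median log2 fold change of all tested genes was -1.06 in WT and -1.17 in KO. The 95% intervals of all 4 lay above that median in both genotypes, the closest being Obox1 in WT (-0.97 to 0.59) and Obox7 in KO (-1.12 to 1.02). The same intervals reach up to 1.26 on the log2 scale, so changes of that size or smaller could not be seen with 2 libraries a group.

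**Figure D2:**
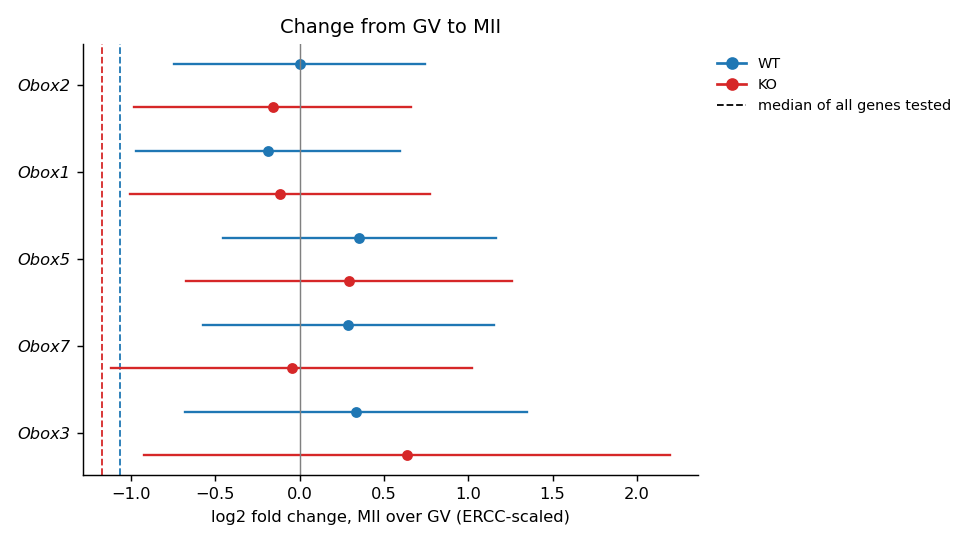
Log2 fold change from GV to MII (x axis) of 5 Obox genes (y axis) in WT (blue) and KO (red), with 95% intervals from the edgeR fit on ERCC-scaled counts. Dashed lines are the median of all genes tested (-1.06 in WT, -1.17 in KO), and every interval lies to the right of its line.

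The genes with the most counts fell less than the median gene. Among the 250 genes with the highest mean count, the median log2 fold change from GV to MII was -0.42 in WT and -0.44 in KO. That mean takes in MII libraries, so genes that held up at MII are favoured into the set. The part of this choice in the smaller fall was not tested. Of these 250 genes, 14.8% had a higher value than Obox5 in WT, 20.0% than Obox7, 36.0% than Obox2 and 44.4% than Obox1. In KO the shares were 9.6%, 26.8%, 34.4% and 30.8%. Against transcripts of like abundance the Obox genes thus lay above the median but not at the end of the range, and Obox1 in WT was near the middle. The edgeR intervals of Obox1, Obox2, Obox5 and Obox7 all included the median of the 250 genes in both genotypes. The closest was Obox5, with lower bounds of -0.454 in WT and -0.671 in KO. Whether these genes fell less than transcripts of like abundance was therefore not resolved.

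The result depends on what the libraries are scaled to. With TMM scaling, which sets the bulk of genes rather than the spike-ins level, the median gene moved by -0.14 in both genotypes, a shift of 0.92 in WT and 1.03 in KO from the ERCC scale. On that relative scale Obox5 rose in WT by 1.28 ± 0.20 (log2, SE, edgeR adjusted p = 0.00819) and Obox7 by 1.23 ± 0.20 (adjusted p = 0.00932), 2 of 5 tested against a background of 8.47% of genes called higher. Obox2 (0.94 ± 0.19, adjusted p = 0.0174) and Obox1 (0.76 ± 0.21, adjusted p = 0.0401) fell short of the fold limit, and Obox3 (1.26 ± 0.42) had an adjusted p of 0.0719. In KO the TMM-scaled changes of these 5 genes ran from 1.11 to 2.10 with adjusted p-values of 0.111 to 0.189. Median-of-ratios scaling called the same 2 genes in WT, where 9.63% of genes were called higher, and 0 of the 6 in KO.

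The same change can be read as a share of each library, without any spike-in. The 6 genes took 1.24% ± 0.0357 of endogenous counts in WT oocytes at GV, 1.26% ± 0.0360 at GVBD, then 2.16% ± 0.181 at MII. The KO shares were 1.119% ± 0.0574, 1.10% ± 0.0547 and 1.92% ± 0.851. The KO MII libraries stood far apart, at 1.32% and 2.52%. Both exceeded the KO GV libraries (1.08% and 1.16%), and they lay on either side of the WT MII pair (2.03% and 2.28%). They also differed in endogenous counts per ERCC count, at 87.9 and 54.7, where the WT MII libraries had 73.3 and 47.0.

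**Figure D3:**
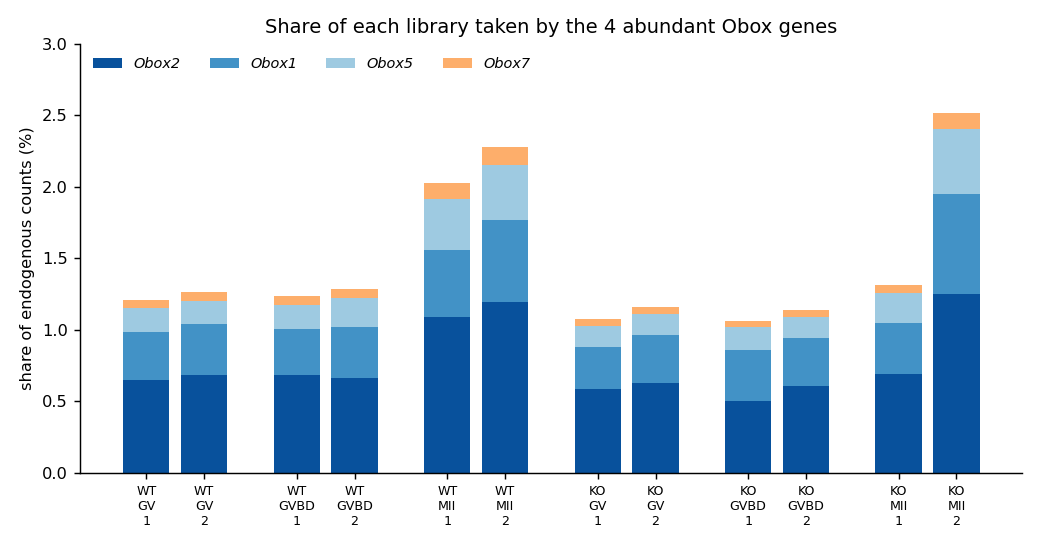
Share of endogenous counts (y axis, percent, from 0) taken by Obox2, Obox1, Obox5 and Obox7 in each of the 12 libraries (x axis: genotype, stage and replicate), stacked. The stack is near 1.1 to 1.3% in all GV and GVBD libraries and reaches 2.03% and 2.28% in WT MII, while the KO MII libraries stand at 1.32% and 2.52%.

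Obox3 and Obox6 were counted at far lower levels. ERCC-scaled counts of Obox3 in WT were 749 and 358 at GV, 736 and 694 at GVBD, then 776 and 621 at MII. The KO counts ran 774 and 647, 1809 and 906, then 626 and 1582 over the same stages. KO GVBD lay above KO GV in both libraries, while KO MII fell on both sides. Its log2 fold change from GV to GVBD in KO was 0.93 ± 0.39 (SE, edgeR adjusted p = 0.63). From GV to MII it was 0.33 ± 0.52 in WT (adjusted p = 0.701) and 0.64 ± 0.70 in KO (adjusted p = 0.607). Without KO GVBD replicate 2 the GVBD change was 1.35, and without KO MII replicate 1 the MII change was 1.16. The size of each change thus depended on 1 library. Those fits leave an arm of 1 library, which is assumed to vary like the other group, so no call is taken from them.

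Obox6 had 9 and 16 reads in the WT libraries of GV oocytes, 0 and 6 at GVBD, then 4 and 0 at MII. The KO libraries had 28 and 31, 10 and 17, and 0 in both at MII. Reads were thus most numerous at GV in both genotypes, and more numerous there in KO than in WT. Against a floor of 3 counts per library, the KO GV level was at least 17.6-fold higher than at MII. The edgeR test gave this change an adjusted p of 0.0506. It was called by DESeq2 (adjusted p = 0.00506, with 3068 of 18777 genes called) and with no filter on low counts (0.00414, 2659 of 28535). It was also called with all 12 libraries in one model (0.0407, 2933 of 22004) and with the replicate block (0.0447, 2462 of 18777). Over all alternatives its adjusted p ranged from 0.00176 (without KO MII replicate 1) to 0.559 (without KO GV replicate 1). In WT too few reads were counted for Obox6 to enter the main test from GV to MII. It entered under an alternative low-count filter on ERCC-scaled library sizes, at -3.42 ± 1.59 (log2, SE, edgeR adjusted p = 0.0863).

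The libraries labelled GVBD were compared with GV in the same way. In WT, 0 of 5 Obox genes were called from GV to GVBD against a background of 0.0511%, and in KO 0 of 6 against 0.22%. Unadjusted p-values under 0.05 were found for 0 and 1 of them (Obox3 in KO), and DESeq2 called 0 in either genotype. Log2 fold changes of the 4 abundant genes ran from -0.17 to 0.09 in WT and from -0.28 to 0.01 in KO. The groups did not overlap for 0 of 5 genes in WT (30.6% of all tested) and for 4 of 6 in KO (40.6%), where Obox3 was higher and Obox2, Obox6 and Obox7 were lower.

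The second comparison asked whether loss of *Alkbh5* changed the Obox transcripts at a given stage. At GV, 0 of 6 were called against a background of 0.0977% (19452 genes tested), with adjusted p-values of 0.448 to 0.961. None had an unadjusted p under 0.05, and DESeq2 called 0. The background of 19 genes was 666 with DESeq2, 346 and 514 without WT GV replicate 1 and 2, and 0 without either KO GV library. This was the most precise comparison: the KO level was 1.06 times the WT level for Obox2 (95% interval 0.850 to 1.33), 1.07 times for Obox1 (0.854 to 1.35), 1.02 times for Obox5 (0.780 to 1.32) and 1.02 times for Obox7 (0.760 to 1.38). The median gene was 0.36 higher in KO on the log2 scale, and the median of the 6 Obox genes was 0.10. On the TMM scale, where that shift is taken out, the 4 abundant genes lay at -0.24 to -0.33, again with 0 called. Their share of counts was lower in both KO GV libraries than in either WT GV library. Obox1, Obox2 and Obox6 had higher ERCC-scaled counts in both KO GV libraries, 3 of 6 without overlap against 51.9% of all genes.

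At GVBD, 0 of 6 were called against 2.54% (19462 tested) and at MII 0 of 5 against 0.803% (17566 tested). Unadjusted p-values under 0.05 and DESeq2 calls were 0 at both stages. The intervals were wider than at GV. For Obox2 the KO to WT ratio was 0.949 at GVBD (95% interval 0.484 to 1.86) and 0.952 at MII (0.487 to 1.86). For Obox7 it was 0.788 (0.387 to 1.61) and 0.810 (0.336 to 1.95), and both KO libraries lay below both WT libraries at each stage. Its ERCC-scaled counts at GVBD were 29613 and 20234 in WT and 19196 and 20104 in KO, so the lower WT library was close to the KO pair. At MII they were 32613 and 24453 in WT and 22153 and 24053 in KO, and the lower WT library was again close to a KO library. For Obox3 the ratio was 1.897 at GVBD (0.871 to 4.13) and 1.58 at MII (0.500 to 5.00). Groups did not overlap for 3 of 6 genes at GVBD (48.2% of all tested) and for 1 of 5 at MII (32.4%).

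**Figure D4:**
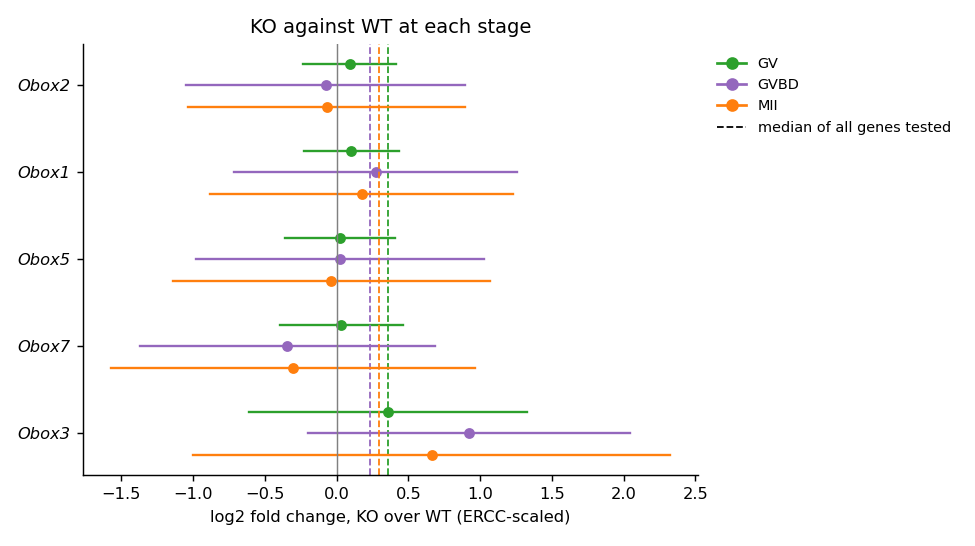
Log2 fold change of KO over WT (x axis) for 5 Obox genes (y axis) at GV (green), GVBD (purple) and MII (orange), with 95% intervals from the edgeR fit on ERCC-scaled counts. Dashed lines are the medians of all genes tested (0.36, 0.23 and 0.30), and every interval includes 0.

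With the 3 stages fitted together, 0 of 6 were called against a background of 1.26% (22004 tested), and DESeq2 called 0. Obox3 had the only unadjusted p under 0.05 (log2 0.65 ± 0.30, SE, edgeR adjusted p = 0.261). The 4 abundant genes ran from -0.21 for Obox7 to 0.18 for Obox1, where the median of all tested genes was 0.29. A KO minus WT difference in the change from GV to MII was called for 0 of 6, with 0 of 20807 genes called (0%) and 1197 at an unadjusted p under 0.05, of which none was an Obox gene. DESeq2 called 154 genes and 0 Obox genes there. For Obox2 that difference was -0.16 ± 0.48 on the log2 scale (95% interval -1.21 to 0.89), and differences within that interval could not be resolved.

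Ratios between members of 1 library need no scaling. The Obox1 to Obox2 ratio of counts in WT was 0.520 and 0.512 at GV, 0.464 and 0.534 at GVBD, then 0.431 and 0.482 at MII. The KO ratios were 0.501 and 0.541, 0.704 and 0.546, then 0.511 and 0.559. It was higher in KO than in WT at GVBD and MII without overlap, and mixed at GV. This ratio rests on the uncertain division of reads between the pair. The Obox7 to Obox2 ratio ran from 0.0832 to 0.108 in WT and from 0.0755 to 0.0901 in KO. The Obox5 to Obox2 ratio in WT was 0.265 and 0.243 at GV, against 0.327 and 0.321 at MII. The KO ratios were 0.251 and 0.234, against 0.300 and 0.361. In both genotypes it was higher in each MII library than in either GV library.

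All 10 ratios among the 5 genes other than Obox6 were tested for a genotype difference by an exact permutation test within stage (216 arrangements, two-sided), a test added after the values were seen. The lowest p was 0.0278, reached by 4 ratios, and the lowest adjusted p over the 10 was 0.0694, so none passed 0.05. The mean log2 difference in KO was 0.38 for Obox1 over Obox7 (adjusted p = 0.0694), 0.19 for Obox1 over Obox2 (adjusted p = 0.0926) and -0.00264 for Obox2 over Obox5 (adjusted p = 0.981), all by this exact permutation test. For GV against MII within genotype the 36 arrangements allow no p below 0.0556. Obox1 over Obox5 (-0.47) and Obox2 over Obox5 (-0.40) reached that p in the exact test (adjusted p = 0.185 for each).

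As a share of the 6-gene sum, Obox2 made up 47.2 to 55.4% of counts over the 12 libraries, Obox1 23.2 to 33.2%, Obox5 12.6 to 17.9% and Obox7 3.70 to 5.64%. The highest share was 0.348% for Obox3 and 0.00916% for Obox6. On log2 CPM after TMM scaling, the members followed each other over the 12 libraries, with Pearson's r of 0.901 to 0.980 among Obox1, Obox2, Obox5 and Obox7 and 0.640 to 0.832 between each of them and Obox3. The points share their libraries, and most of the spread lies between MII and the earlier stages. The search covered 10834 named genes averaging 50 counts or more, and the 3 closest in pattern to Obox2 were Zfp873 (r = 0.983), Obox7 (0.980) and Unc13c (0.976). To Obox5 they were Omt2a (0.989), Sc5d (0.980) and Oosp3 (0.978). Obox1 was closest to Obox5 (0.970), Omt2a (0.965) and Immp1l (0.965). Obox7 was closest to Obox2 (0.980), Epb41l4a (0.979) and Bbip1 (0.979). Obox3 was closest to Ebna1bp2 (0.935), Efcab11 (0.922) and Isy1 (0.920).

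A list of other homeobox genes of the oocyte and early embryo was read beside them. Of 30 listed, 18 could be tested from GV to MII in WT. Of those, 3 were called lower and 0 higher, where 30.9% of all tested genes were called. Among them were Lhx8, which is needed for early follicle growth (-2.28 ± 0.53, log2, SE, edgeR adjusted p = 0.000127), and Sebox, an oocyte homeobox gene (-1.73 ± 0.55, adjusted p = 0.00771). Both are named after their values were seen. The list's median was -0.91, where that of all tested genes was -1.06 and that of the 5 Obox genes 0.29. Values above 0, all uncalled, were found for Meis2 (0.61 ± 0.43), Pou5f1 (0.53 ± 0.55), Tgif2 (0.30 ± 0.54) and the sparsely counted Crx (1.70 ± 1.45). The other tested genes of the list were below 0. Meis2, with the highest counts on the list, was at 32984 and 31663 (ERCC-scaled) in WT at GV, then 62168 and 36251 at MII. The list was not matched to the Obox genes in abundance. In KO, where 3.28% of all tested genes were called, 0 of 16 were called by edgeR (2 at an unadjusted p under 0.05, 1 called by DESeq2) and the median was -1.26. Nobox, a regulator of oocyte genes, was at 18991 and 12551 (ERCC-scaled) in WT oocytes at GV, against 10532 and 6295 at MII, and its log2 fold change was -0.91 ± 0.46 (adjusted p = 0.125).

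Of 30 maternal factors linked to activation of the embryonic genome, 29 were tested from GV to MII in WT. Of those, 5 were called lower and 0 higher, against the same 30.9% of all tested genes. They were the transcription factor gene Esrrb (-3.92 ± 0.52, adjusted p = 2.6e-12 by edgeR), Tead4, a partner of YAP (-4.33 ± 1.64, adjusted p = 0.0293), Nfyc, a subunit of the CCAAT-binding factor NF-Y (-2.39 ± 0.52, adjusted p = 3.75e-05), Dppa4, a chromatin factor (-1.80 ± 0.51, adjusted p = 0.0025), and Trim24 (-1.46 ± 0.50, adjusted p = 0.0136). These too are named after their values were seen. Tead4 was counted at low levels, ERCC-scaled 29.7 and 16.9 in WT at GV and 0 and 1.93 at MII. The list's median was -0.38, where that of all tested genes was -1.06. In KO, where 3.28% of all tested genes were called, edgeR called 0 of 29 (5 at an unadjusted p under 0.05, 4 called by DESeq2). The list's KO median was -0.58 against -1.17 over all tested genes. Between KO and WT 0.0977% of all tested genes were called at the GV stage, 2.54% at GVBD, then 0.803% at MII. For this contrast edgeR called 0 homeobox genes at GV (of 17), GVBD (of 16) and MII (of 18), with 4, 5 and 0 at an unadjusted p under 0.05 and 1, 0 and 0 called by DESeq2. It called 0 activation factors at these stages (of 29, 29 and 28), with 5, 6 and 1 at an unadjusted p under 0.05 and 0, 2 and 0 called by DESeq2.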

How the data were processed

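Mouse oocyte RNA was sequenced in 12 libraries. The deposited values are raw counts of reads per gene, beside 92 ERCC sequences. Tools named in the submitters' processing notes are Cutadapt 1.9, HISAT2 2.0.4 and StringTie 1.3.4d, with build mm10 (GRCm38), and the study's methods state that only reads mapping to 1 place were kept. Unique mapping lowers the counts of near-identical copies. Per the study's methods, ERCC RNA was added before reverse transcription of a template-switching protocol, whereas the labels describe a stranded bulk protocol, and which was used is not settled. No molecular identifiers are stated, so PCR copies may be counted as reads. Counts were made without a stated strand setting.

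The 6 Obox genes and the gene lists were chosen with earlier results of these data known. Symbols came from a table of Ensembl identifiers (52073 of 56691 genes matched), and transcripts and positions from GENCODE M21. Each comparison was fitted with edgeR 4.0.16 (glmQLFit, glmQLFTest, R 4.3.3) to the libraries it names, after filterByExpr with the compared groups, with library sizes proportional to summed ERCC counts. The SE is the absolute log2 fold change over the root of F, and 95% intervals use the test's degrees of freedom. Alternatives were TMM and median-of-ratios scaling, restriction to well-counted ERCC sequences, 2 other filters on low counts, DESeq2, 1 model of all 12 libraries, calls by adjusted p alone, a replicate block, members summed and each library left out. The filter was first run on ERCC-scaled library sizes and was changed to the default after its counts were seen, so the first form was added as an alternative, as was the test of ratios between members. Named genes are the 6, other Obox rows, *Alkbh5*, list genes called together with a member, and the 3 closest patterns to each member with a mean of at least 50 counts. No member was called, so the list genes given were named after their values were seen. The values of 1 called list gene are not reported here. Identity of coding sequences replaces the planned identity of proteins, whose sequences were not used here. The fits were tested on simulated counts.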

Additional observations from a re-analysis of the deposited data

How the results depend on the processing

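With 2 libraries a group the intervals are wide, and reads of Obox1 and Obox2 could not be fully separated. Of 90 recomputed counts of called Obox genes with all libraries kept, 84 were unchanged. From GV to MII in WT, 2 genes (Obox5 and Obox7) were called instead of 0 with TMM and with median-of-ratios scaling. Both set the bulk of genes rather than the spike-ins level, and the median gene there moved by -0.14 and -0.094. With these scalings 8.47% and 9.63% of all tested genes were called higher. From GV to MII in KO, 1 (Obox6) was called instead of 0 with DESeq2 (3068 of 18777 genes called) and with no filter on low counts (2659 of 28535). The same held with all 12 libraries in one model (2933 of 22004) and with the replicate block (2462 of 18777), and the cause was not tested. Fits without 1 library leave an arm of 1 that is assumed to vary like the other group. Counts of called Obox genes from them are not given. The low-count filter on ERCC-scaled library sizes, added after seeing the data, changed no count of called Obox genes, but over all genes it lowered the calls from GV to MII in KO from 616 to 222 and those for KO against WT at GV from 19 to 11, where *Alkbh5* missed the threshold (edgeR adjusted p = 0.0502). The *Alkbh5* call, at an unchanged direction, was lost in 7 of 60 alternatives, mostly at GV. Over all genes, the calls from GV to MII in KO were 2462 with the replicate block, 2933 with all 12 libraries in one model, 2659 with no filter, 2454 under a minimum of 10 counts in each library, 951 with TMM and 905 with median-of-ratios scaling. Those for KO against WT at GV were 0 with the block and in one model, 666 with no filter and 196 under the stricter filter. For the other comparisons the calls over all genes ranged over every alternative from 5 to 953 for KO against WT at GVBD (494 as reported), 2 to 542 for KO against WT at MII (141 as reported), 2853 to 5882 for GV to MII in WT (5821 as reported), 0 to 629 for GV to GVBD in WT (10 as reported), 0 to 888 for GV to GVBD in KO (42 as reported), 63 to 1356 for KO against WT with the stages together (278 as reported) and 0 to 346 for the KO minus WT difference in the change from GV to MII (0 as reported).

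The replicate numbers are not stated to mark shared animals or days, and same-numbered deviations correlated at -0.20 to 0.15 over 15 pairs of groups, over 0.1 in 3. The replicate block changed no other count of called Obox genes. It turned the sign of some uncalled log2 fold changes. For GV to MII in WT it was -0.020 for Obox2. For GV to GVBD in KO it was -0.0072 for Obox1.

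TMM scaling turned the sign of these log2 fold changes, all uncalled on the ERCC scale. For KO against WT at GV it was -0.24 for Obox1, -0.26 for Obox2, -0.0021 for Obox3, -0.33 for Obox5 and -0.33 for Obox7. For KO against WT at GVBD it was -0.016 for Obox1 and -0.28 for Obox5. For GV to MII in WT it was 0.76 for Obox1. For GV to MII in KO it was 1.17 for Obox1, 1.11 for Obox2 and 1.23 for Obox7. For GV to GVBD in WT it was 0.059 for Obox5. For GV to GVBD in KO it was 0.093 for Obox5. For the KO minus WT difference in the change from GV to MII it was 0.072 for Obox2 and 0.23 for Obox5. For KO against WT with the stages together it was -0.020 for Obox1 and -0.19 for Obox5.

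Median-of-ratios scaling turned these. For KO against WT at GV the value was -0.24 for Obox1, -0.25 for Obox2, -0.33 for Obox5 and -0.32 for Obox7. For KO against WT at GVBD the value was -0.0090 for Obox1 and -0.27 for Obox5. For GV to MII in WT the value was 0.81 for Obox1. For GV to MII in KO the value was 1.21 for Obox1, 1.15 for Obox2 and 1.27 for Obox7. For GV to GVBD in WT the value was 0.031 for Obox5. For GV to GVBD in KO the value was 0.085 for Obox5. For the KO minus WT difference in the change from GV to MII the value was 0.16 for Obox2 and 0.32 for Obox5. For KO against WT with the stages together the value was -0.033 for Obox1 and -0.21 for Obox5.

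Leaving out 1 library carried these uncalled log2 fold changes across 0. The range for KO against WT at GV was -0.077 to 0.99 for Obox3, -0.081 to 0.12 for Obox5 and -0.14 to 0.18 for Obox7. The range for KO against WT at GVBD was -0.35 to 0.27 for Obox2 and -0.22 to 0.23 for Obox5. The range for KO against WT at MII was -0.30 to 0.21 for Obox2, -0.16 to 1.18 for Obox3 and -0.28 to 0.26 for Obox5. The range for GV to MII in WT was -0.27 to 0.23 for Obox2 and -0.10 to 0.96 for Obox3. The range for GV to MII in KO was -0.27 to 0.027 for Obox1, -0.18 to 1.16 for Obox3 and -0.20 to 0.12 for Obox7. The range for GV to GVBD in WT was -0.39 to 0.030 for Obox1, -0.44 to 0.19 for Obox2, -0.066 to 0.9973 for Obox3, -0.19 to 0.12 for Obox5 and -0.21 to 0.34 for Obox7. The range for GV to GVBD in KO was -0.20 to 0.19 for Obox1 and -0.27 to 0.18 for Obox5. The range for the KO minus WT difference in the change from GV to MII was -0.091 to 0.26 for Obox1, -0.39 to 0.12 for Obox2, -0.52 to 0.82 for Obox3 and -0.30 to 0.23 for Obox5. The range for KO against WT with the stages together was -0.084 to 0.074 for Obox2 and -0.060 to 0.080 for Obox5.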
